A study of Mus musculus with 6 samples.

Results

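Sphingosine-1-phosphate (S1P) is a lipid signal that guides lymphocytes out of the spleen, lymph nodes and thymus into blood and lymph. The genes described here are the 5 S1P receptors (S1pr1, S1pr2, S1pr3, S1pr4 and S1pr5), the transcription factor Klf2 and the S1pr1 antagonist Cd69. With them are the sphingosine kinases Sphk1 and Sphk2, which make S1P, and the S1P lyase Sgpl1. The 10 genes were chosen by name, and their level over the 6 arrays was to decide between probe sets of 1 gene. All 10 were measured, each by 1 probe set, out of 19938 genes on the array. They were picked when earlier results of these arrays were already known, so their differences are given as a description of this gene set and the p values support no choice of genes.

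The arrays held RNA of T cells from 6 mice, 3 given rapamycin and 3 given phosphate-buffered saline (PBS). All were B6D2F1/J mice, an F1 hybrid with a B6 parent, that were lethally irradiated and then given T cell-depleted B6 bone marrow. Rapamycin blocks the kinase mTOR and was given into the peritoneum every other day, at 1.5 mg/kg per injection, up to day 10. The control mice were injected with PBS instead. T cells were sorted from spleen on day 10 by CD3 staining. The protocol speaks of transplants with B6 spleen cells and of transplants without them, and the labels do not say which a mouse received, so the sorted T cells may be of donor or of host origin. Values are log2 expression, and every difference is rapamycin minus PBS, so that a negative value means a lower level in the rapamycin mice.

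RNA of T cells was present, as the sample titles say. All 14 measured T cell markers lay above the 95th percentile of 1190 olfactory and vomeronasal receptor genes, which T cells are not known to use and which serve here as a rough background of 5.46. Cd3e, a chain of the T cell receptor complex, measured 12.84 ± 0.08 in rapamycin mice and 12.87 ± 0.05 in PBS mice (SD, n = 3 each). Cd4 measured 11.92 ± 0.42 and Cd8a 11.75 ± 0.04 in rapamycin mice, against 11.78 ± 0.24 and 11.72 ± 0.16 in PBS mice. Markers of other cells mostly lay above it as well, with 0 of 12 neutrophil, 0 of 10 erythroid and 1 of 10 monocyte and macrophage markers within it. The share of all genes above it was not counted, and such a level is common: Sphk1 at 5.86 exceeds only 42.2% of all genes. The neutrophil marker Lcn2 was far above it, at 12.64 in rapamycin mice and 12.20 in PBS mice. Erythroid markers ran from Hemgn (5.52 in both groups) up to Slc4a1 (8.17 in rapamycin mice, 7.73 in PBS mice), so their count alone does not show erythroid RNA. A level above it therefore does not show how pure the sorted T cells were. The mean of the neutrophil markers per mouse ranged from 8.55 to 9.89 with rapamycin and from 7.95 to 9.32 with PBS. Between arrays the correlation over all genes was 0.9934 to 0.9963, and no array was a copy of another. The 3 arrays per group limit the precision, with a median standard error of 0.0955 log2 over all genes.

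S1P is abundant in blood and lymph and kept scarce inside lymphoid tissue, and a T cell carrying S1PR1 on its surface follows this gradient outward. KLF2 switches on S1pr1 in resting T cells. CD69, which appears within hours of activation, binds S1PR1 and takes it off the surface, so that activated cells stay. PI3K, AKT and mTOR signalling is known to hold down Klf2 and its targets in activated T cells in culture, in part through the transcription factor FOXO1.

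Promoter windows of RefSeq (build GRCm38.p6) were found for 8 of the 10 genes, with S1pr1 and Cd69 named only. Those of S1pr5 and Klf2 are shown because both genes had a negative difference at an unadjusted p under 0.05 and KLF factors bind DNA at the letters CACCC. Each sequence is the 250 bases before the gene's start, on the gene's own strand, and capitals mark CACCC or its reverse complement GGGTG. The S1pr5 window lies at chr9:21248444-21248693 on the minus strand and the Klf2 window at chr8:72318812-72319061 on the plus strand.
S1pr5: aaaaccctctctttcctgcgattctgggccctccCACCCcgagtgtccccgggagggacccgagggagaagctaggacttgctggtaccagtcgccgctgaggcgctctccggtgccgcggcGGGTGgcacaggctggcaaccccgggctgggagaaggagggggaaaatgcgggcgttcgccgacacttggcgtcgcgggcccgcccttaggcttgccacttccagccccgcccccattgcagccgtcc
Klf2: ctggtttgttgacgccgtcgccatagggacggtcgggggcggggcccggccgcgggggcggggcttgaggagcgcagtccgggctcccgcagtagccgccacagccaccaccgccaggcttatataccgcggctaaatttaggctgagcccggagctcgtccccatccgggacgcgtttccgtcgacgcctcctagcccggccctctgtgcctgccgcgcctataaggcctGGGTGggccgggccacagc
The S1pr5 window held 2 matches, 1 on each strand, and the Klf2 window held 1. CACCC stood also in windows of S1pr2, S1pr3, S1pr4, Sphk1 and Sphk2, and not in that of Sgpl1, so it does not set the 2 genes shown apart. Over both strands 52.0% of all 32851 windows of this length held CACCC, so a match is common. The longer KLF sequence CCACACCC, which contains CACCC, stood in 3.20% of windows and, among the members, in that of S1pr2 alone. Neither GTAAACA, a FOXO sequence found in 3.17% of windows, nor AGGTGTGA, a T-box sequence found in 1.12%, stood in a window of any of the 8 members. These are letters in a window and say nothing of whether a factor binds there.

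The question was whether egress genes of splenic T cells differ between recipients given rapamycin and recipients given PBS. Of the 10 genes 0 passed limma's moderated test at an adjusted p under 0.05 over all genes, where 0.00502% of all genes passed. At an unadjusted p under 0.05 stood S1pr5, S1pr1 and Klf2, which are 3 of 10, all with negative differences, against 4.67% of all genes in either direction and 3.07% with a negative difference. In S1pr5 and S1pr1, 2 of 10, the highest of the rapamycin mice was still under the lowest of the PBS mice, and in 0 of 10 was it the other way round. The groups did not overlap in 9.42% of all genes, with the rapamycin mice as the lower group in 6.28% and as the higher group in 3.14%. In all, 8 of the 10 differences were negative and 2 positive, against 55.3% negative and 44.7% positive over all genes, and their median was -0.08 against -0.01 over all genes.

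**Figure D1:**
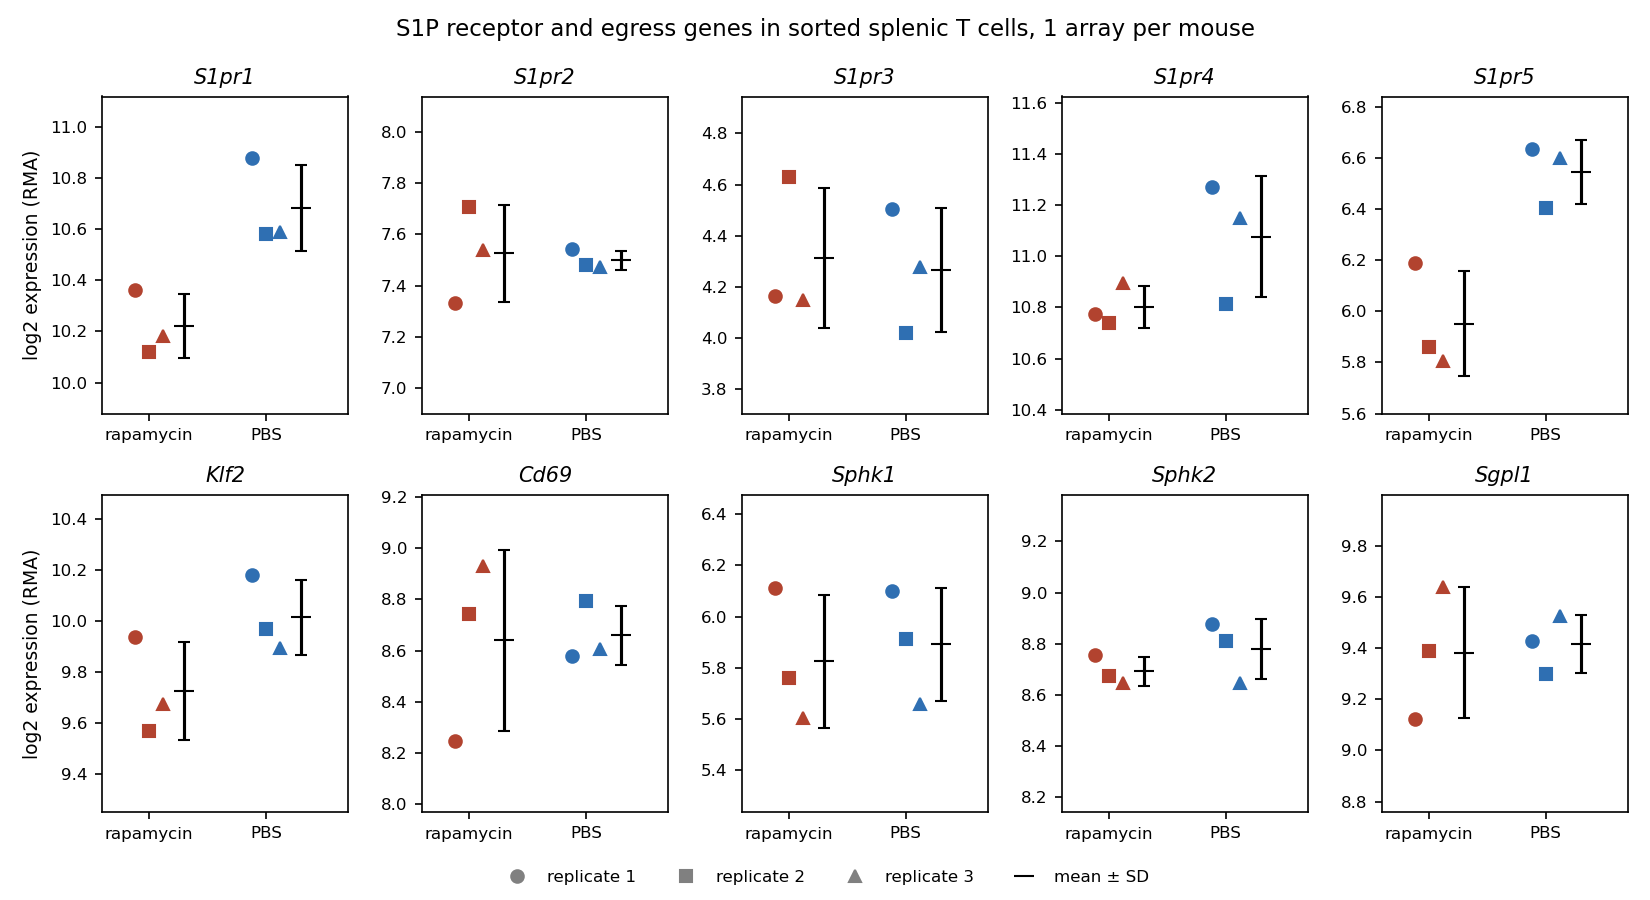
Log2 expression of the 10 genes in each mouse (vertical axis, the same span in every panel), with rapamycin mice in red and PBS mice in blue, the marker shape giving the replicate number and the black bar the mean ± SD (n = 3). S1pr1 and S1pr5 are the genes whose groups do not overlap, and S1pr2, S1pr3, Cd69, Sphk1, Sphk2 and Sgpl1 have intermixed groups.

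S1pr1, the receptor that carries T cells out along the S1P gradient, measured 10.36, 10.12 and 10.18 in the rapamycin mice, against 10.88, 10.58 and 10.59 in the PBS mice. The highest rapamycin mouse lay 0.22 below the lowest PBS mouse, and replicate 1 was the highest of its group on both sides. The difference was -0.46 (SE 0.11, 95% interval -0.71 to -0.21), a level 1.38-fold lower (limma, adjusted p = 0.814 over all genes). By unadjusted p (0.00243) S1pr1 stood 55th of 19938 genes.

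S1pr5 had the most negative difference of the 10. It encodes a receptor best known for the exit of natural killer (NK) cells from marrow and lymph nodes, and effector T cells carry it as well. It measured 6.19, 5.86 and 5.81 in rapamycin mice, against 6.63, 6.40 and 6.60 in PBS mice. All 3 rapamycin mice lay below the PBS mice, the nearest by 0.22, and rapamycin replicate 1 was again nearest to the PBS group. The difference was -0.59 (SE 0.12, 95% interval -0.86 to -0.32), a level 1.51-fold lower (limma, adjusted p = 0.747). By unadjusted p (0.000856) it stood 21st of all genes.

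Markers of NK cells were set beside S1pr5 because those cells express it. The mean of the 10 measured NK markers was 7.15 to 7.37 per mouse with rapamycin and 7.04 to 7.58 with PBS, so the groups overlapped. Klra8, Klre1 and the NK receptor Ncr1 lay within the background of olfactory and vomeronasal receptor genes. Ncr1 measured 3.94, 4.13 and 4.12 in rapamycin mice, against 4.36, 4.25 and 4.30 in PBS mice. Itga2, an integrin chain of NK cells and some T cells, measured 7.34, 7.49 and 7.47 in rapamycin mice, against 8.54, 7.48 and 8.23 in PBS mice, and its groups overlapped. Klrk1, an activating receptor of NK and CD8 T cells, went the other way, at 8.33 ± 0.26 in rapamycin mice and 7.93 ± 0.48 in PBS mice (SD, n = 3 each). Of the 10 NK markers 7 had negative and 3 positive differences, against 55.3% negative and 44.7% positive over all genes. At an unadjusted p under 0.05 stood 2 with a negative difference, Ncr1 and Itga2, against 3.07% of all genes. With a positive difference stood 0, against 1.60% of all genes. Since Ncr1 lay within the background, its difference is not interpretable as a change. In a bulk sample fewer cells of a type and less RNA per cell cannot be told apart, and the part of NK cells in the S1pr5 difference was not tested.

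S1pr4, a receptor found mainly on lymphocytes and other blood cells, measured 10.77, 10.74 and 10.90 in rapamycin mice, against 11.27, 10.81 and 11.15 in PBS mice. PBS replicate 2 lay among the rapamycin mice, so the groups overlapped. The difference was -0.27 (SE 0.12, 95% interval -0.55 to 0.00), with an unadjusted p of 0.0526 (limma, adjusted p = 0.9998). Without PBS replicate 2 it was -0.41, and without PBS replicate 1 it was -0.18.

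The other two receptors had differences near 0. S1pr2, which couples to G12 and G13 proteins and holds cells in place, as in B cell follicles, measured 7.33, 7.71 and 7.54 in rapamycin mice, against 7.54, 7.48 and 7.47 in PBS mice. The PBS values lay inside the range of the rapamycin values, and the difference was 0.03 (SE 0.10, 95% interval -0.21 to 0.26). S1pr3, a receptor of endothelium and marginal zone B cells, measured 4.16, 4.63 and 4.15 in rapamycin mice, against 4.50, 4.02 and 4.28 in PBS mice. This level lay within the background of olfactory and vomeronasal receptor genes, so these arrays do not show that the gene was expressed, and the difference of 0.05 (SE 0.16, 95% interval -0.32 to 0.41) is not interpretable as a change. The other 9 members lay above that background, Sphk1 (mean 5.86) and S1pr5 (6.25) by the smallest margins. Of markers of cells that carry S1pr3 or S1pr2, 8 of 10 B cell markers, Pax5 and Ms4a1 among them, lay within that background. So did 8 of 12 endothelial and stromal markers, Kdr and Tek among them. Above it lay Cd22 and Cd79b of the first list and Pecam1, Egfl7, Col1a1 and Col3a1 of the second, as did S1pr2 itself (mean 7.51). The part of such cells in the receptor levels was not tested.

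**Figure D2:**
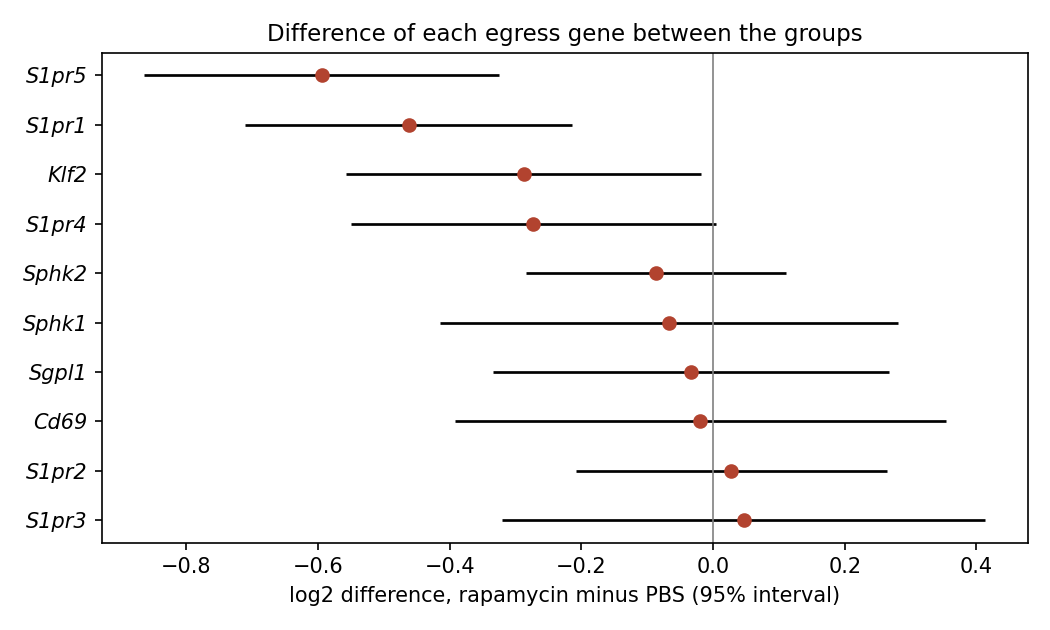
Difference in log2 expression, rapamycin minus PBS, for each of the 10 genes (points) with its 95% interval from limma (lines). The intervals of S1pr5 (-0.86 to -0.32), S1pr1 (-0.71 to -0.21) and Klf2 (-0.56 to -0.02) lie below 0, and those of the other 7 include it.

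Klf2, the transcription factor that drives S1pr1, measured 9.94, 9.57 and 9.67 in rapamycin mice, against 10.18, 9.97 and 9.90 in PBS mice. Rapamycin replicate 1 reached into the PBS range, so the groups overlapped by 0.04. The difference was -0.29 (SE 0.12, 95% interval -0.56 to -0.02), with an unadjusted p of 0.0392 (limma, adjusted p = 0.9998). With 1 mouse left out the unadjusted p was 0.05 or more in 4 of 6 fits: 0.138 without rapamycin replicate 2, 0.0976 without rapamycin replicate 3, 0.142 without PBS replicate 1 and 0.0615 without PBS replicate 2. It was 0.0603 with all probe sets tested together.

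Cd69, whose protein removes S1PR1 from the surface, measured 8.25, 8.74 and 8.93 in rapamycin mice, against 8.58, 8.79 and 8.61 in PBS mice. The rapamycin mice spread on both sides of the PBS mice, over 0.68 log2 against 0.21. The difference of -0.02 (SE 0.16, 95% interval -0.39 to 0.35) took the other sign, 0.18, without rapamycin replicate 1. That mouse had the lowest Cd69 of the 6, the highest S1pr1, S1pr5 and Klf2 of its group and the highest mean of neutrophil markers of all mice (9.89). The part of the neutrophil RNA in these values was not tested.

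The enzymes that make and break down S1P had overlapping groups. Sphk1, which makes S1P mainly in the cytosol and at the plasma membrane, measured 6.11, 5.76 and 5.60 in rapamycin mice, against 6.10, 5.91 and 5.66 in PBS mice. Sphk2, the kinase found also in the nucleus and mitochondria, measured 8.76, 8.67 and 8.65 in rapamycin mice, against 8.88, 8.81 and 8.65 in PBS mice. The differences were -0.07 (95% interval -0.41 to 0.28) for Sphk1 and -0.09 (95% interval -0.28 to 0.11) for Sphk2.

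Sgpl1, the lyase that breaks S1P down for good and keeps it low in tissue, measured 9.12, 9.39 and 9.64 in rapamycin mice, against 9.43, 9.30 and 9.52 in PBS mice. The groups overlapped, and the difference was -0.03 (SE 0.13, 95% interval -0.33 to 0.27). A p that misses the threshold does not show equal levels: for these 3 enzyme genes the intervals reach down to -0.41 and up to 0.28.

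**Figure D3:**
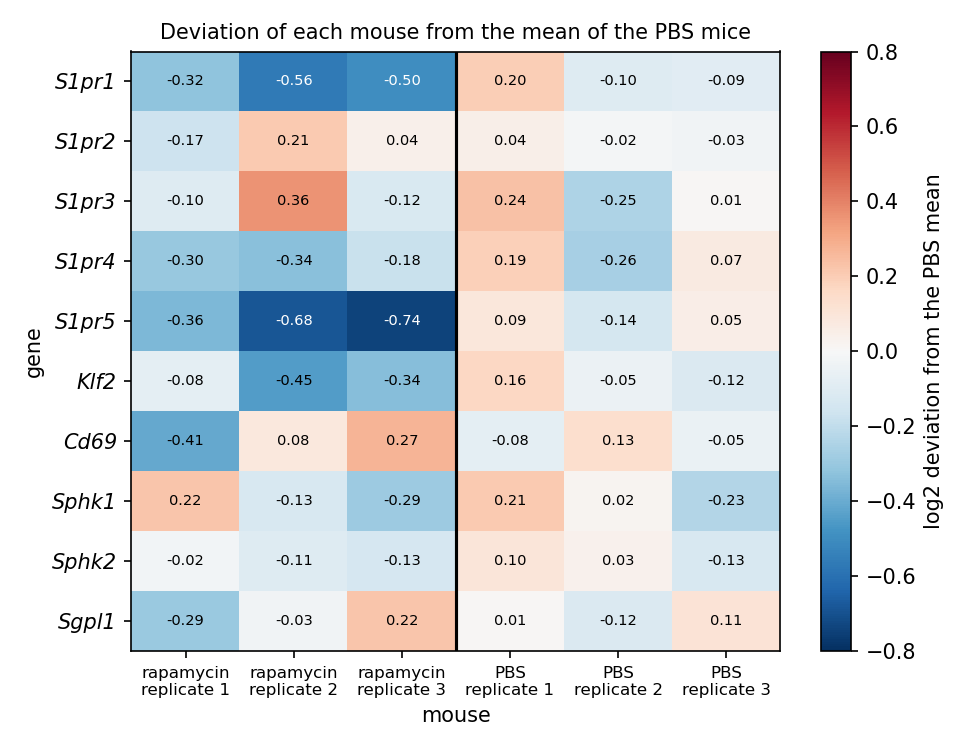
Log2 deviation of each mouse (columns, rapamycin left of PBS) from the mean of the PBS mice for each gene (rows), printed in the cell and coloured from blue (below) to red (above). S1pr1 ranges from -0.56 to -0.32 and S1pr5 from -0.74 to -0.36 in the rapamycin mice, while Cd69 ranges from -0.41 to 0.27 in them.

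Over the 6 arrays, the genes whose pattern was most like that of S1pr1 among the more highly expressed genes were Gramd3 (Pearson r = 0.997), Rell1 (r = 0.996) and Fmnl1 (r = 0.995). For S1pr5 they were Llgl2 (r = 0.988), Cc2d1a (r = 0.987) and Osbpl5 (r = 0.985). The 6 arrays share a group difference, and 142 of the 9968 genes compared reached r above 0.9 with S1pr1, as did 132 of 9969 with S1pr5. The genes named were picked as the highest, so they are given as a description.

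Genes that act around the 10 were taken from lists chosen for their role. None of these list genes passed at an adjusted p under 0.05 in limma's test. Counts below are of genes at an unadjusted p under 0.05, to be read against 1.60% of all genes with a positive and 3.07% with a negative difference. Each list's median is to be read against -0.01 over all genes, and its counts of negative and positive differences against 55.3% and 44.7% of all genes.

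Among 23 genes of S1P synthesis, breakdown and transport, 1 stood at that level with a positive and 3 with a negative difference. The median was -0.04, and with 1 mouse left out it ran from -0.07 to 0.006, the positive value being without rapamycin replicate 1. Cers4, a ceramide synthase, measured 8.99, 9.17 and 9.06 in rapamycin mice, against 9.34, 9.34 and 9.44 in PBS mice, without overlap, a difference of -0.30 (SE 0.08). Plpp1 and Plpp3 encode lipid phosphatases that can dephosphorylate S1P outside the cell. They went in opposite directions, with differences of 0.42 (SE 0.13) for Plpp1 and -0.32 (SE 0.13) for Plpp3, and Plpp3 lay within the range of background, at 4.72 in rapamycin mice and 5.04 in PBS mice. Acer1, an alkaline ceramidase, differed by -0.23 (SE 0.09), also at a background level of 4.53 in rapamycin mice and 4.76 in PBS mice. The S1P exporters, singled out for their role after their values were seen, had small differences of -0.14 (SE 0.12) for Spns2 of endothelium and -0.09 (SE 0.10) for Mfsd2b of red cells.

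The 21 measured genes of S1P receptor signalling and desensitisation held 16 negative differences, a median of -0.07, and 1 gene at an unadjusted p under 0.05. The median was -0.0125 without rapamycin replicate 1. The gene, Rgs16, is a brake on G protein signalling of chemoattractant receptors that activation induces in lymphocytes. It measured 9.21, 10.15 and 9.42 in rapamycin mice, against 8.37, 9.12 and 9.31 in PBS mice, with overlapping groups, a difference of 0.66 (SE 0.29) and an unadjusted p of 0.0497.

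Of 17 measured regulators of Klf2, S1pr1 and S1pr5 transcription, 12 had negative differences, the median was -0.06, and 1 stood at an unadjusted p under 0.05. Foxo1, which switches on Klf2 in resting T cells, measured 9.02, 8.86 and 8.75 in rapamycin mice, against 9.20, 9.15 and 9.10 in PBS mice. Its groups did not overlap, with rapamycin replicate 1 nearest to the PBS mice, and the difference was -0.27 (SE 0.09, adjusted p = 0.982 in limma's test). Klf3, a relative of Klf2 singled out after its value was seen, measured 8.39 ± 0.10 in rapamycin mice and 8.72 ± 0.34 in PBS mice (SD, n = 3 each). Tbx21, whose product T-bet is needed for S1pr5 in NK cells, differed by -0.08 (SE 0.09) and was also singled out for its role after its value was seen.

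**Figure D4:**
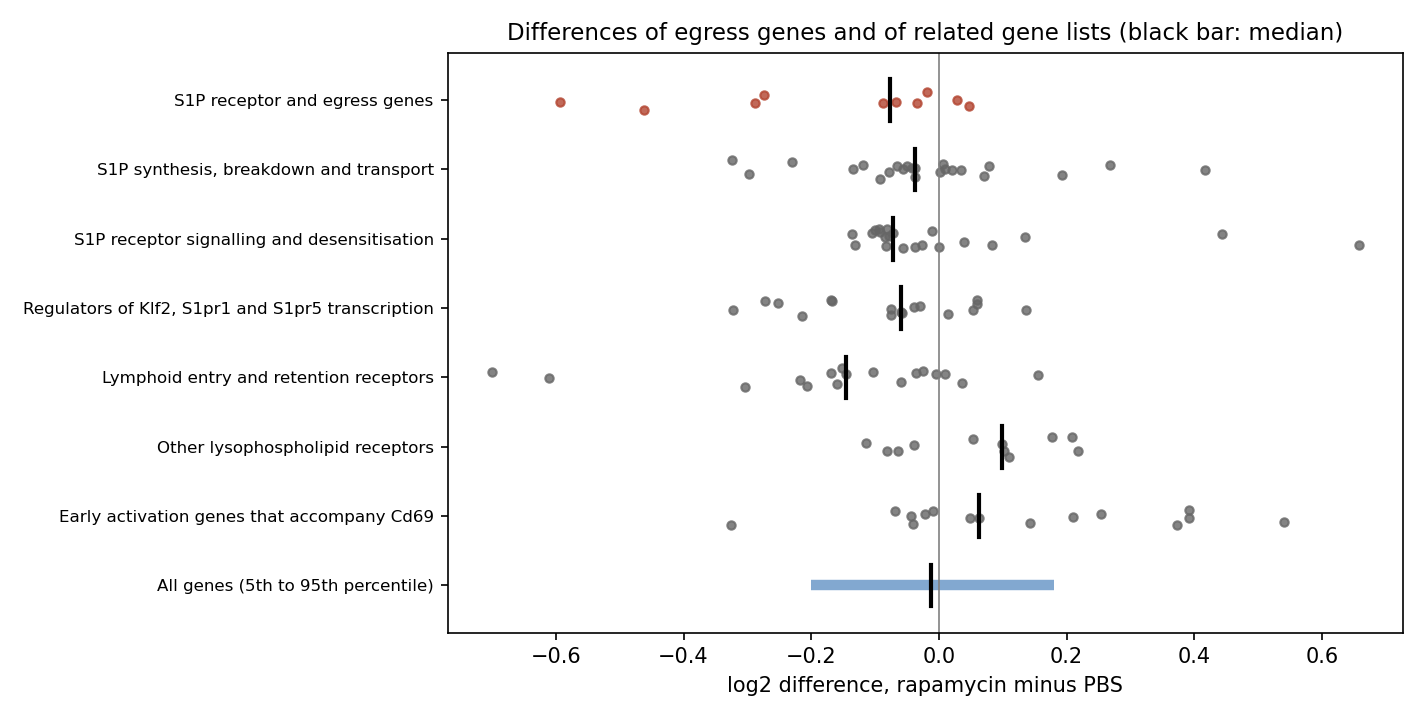
Log2 differences, rapamycin minus PBS, of the 10 genes (red points) and of each gene of 6 related lists (grey points), with the median of each as a black bar and, in blue, the range from the 5th to the 95th percentile of all 19938 genes (-0.20 to 0.18). S1pr5, S1pr1, Klf2 and S1pr4, 4 of the 10 genes, lie left of that range, and the lymphoid entry and retention receptors have the lowest list median, -0.15.

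Receptors for entry into lymphoid tissue and for retention there had a median of -0.15 over 17 measured genes, with 14 negative differences and 3 genes at an unadjusted p under 0.05, all negative. Itga1, an integrin chain that binds collagen and marks tissue-resident T cells, measured 7.92, 7.49 and 7.90 in rapamycin mice, against 8.45, 8.15 and 8.53 in PBS mice, without overlap. Its difference was -0.61 (SE 0.14). Cxcr5, the receptor that leads cells into B cell follicles, measured 6.31, 6.46 and 6.62 in rapamycin mice, against 6.80, 7.71 and 6.98 in PBS mice, a difference of -0.70 (SE 0.21). Cxcr3, a receptor of effector T cells for interferon-induced chemokines, differed by -0.30 (SE 0.10), and its groups overlapped. The lymph node homing receptor Ccr7 (-0.10, SE 0.24) and the IL-7 receptor Il7r (-0.02, SE 0.17), both known FOXO1 or KLF2 dependent genes, were looked at for that role after their values were seen, and their groups overlapped.

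The 11 measured receptors for other lysophospholipids and protons had a median of 0.10, 7 positive differences and 0 genes at an unadjusted p under 0.05. Lpar1, Lpar4, Gpr4 and Gpr34 lay within the background of olfactory and vomeronasal receptor genes, so their differences are not interpretable as changes. The median is itself the difference of Lpar4, and it was 0.11 over the 5 receptors left without the lowest 50% of genes. With 1 mouse left out the median ran from 0.03 (without PBS replicate 2) to 0.15 (without PBS replicate 3). The smallest p values belonged to Gpr65, a proton-sensing receptor (0.21, SE 0.11), and to Lpar3, a lysophosphatidic acid receptor (0.22, SE 0.12). Lpar3 was close to the background, at 5.68 in rapamycin mice and 5.46 in PBS mice.

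Early activation genes, which appear together with Cd69 in newly stimulated T cells, had 9 positive differences of 15, a median of 0.06 and 2 genes at an unadjusted p under 0.05, both positive. Il2ra, the alpha chain of the IL-2 receptor, measured 10.68, 11.04 and 10.73 in rapamycin mice, against 10.33, 10.63 and 10.37 in PBS mice, without overlap, a difference of 0.37 (SE 0.12). Egr2, a transcription factor downstream of the T cell receptor, differed by 0.54 (SE 0.21), and its groups overlapped. With 1 mouse left out the median of this list ran from 0.0059 (without PBS replicate 3) to 0.22 (without rapamycin replicate 1).

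Of the markers of other cells, those with the smallest p were given beside these results. The erythroid marker means nearly touched without overlapping, at 6.21 to 6.48 in rapamycin mice and 6.13 to 6.21 in PBS mice, with differences of 0.31 (SE 0.14) for Epb42 and 0.45 (SE 0.25) for Slc4a1, both red cell membrane proteins. Epb42 was near the background, at 5.72, 6.05 and 5.42 in rapamycin mice and 5.39, 5.40 and 5.49 in PBS mice, which limits its reading. Neutrophil markers were positive in 12 of 12, against 44.7% of all genes, and 0 of them stood at an unadjusted p under 0.05. Elane differed by 0.61 (SE 0.30) and Lcn2 by 0.45 (SE 0.25). Monocyte and macrophage marker means overlapped, at 8.19 to 8.60 in rapamycin mice and 8.42 to 9.06 in PBS mice. The markers did not move together, with 6 negative and 4 positive differences. At an unadjusted p under 0.05 stood 2 with a negative difference, against 3.07% of all genes, and 1 with a positive difference, against 1.60%. The 2 were Spic, a factor of red pulp macrophages, at -1.34 (SE 0.19) and Hmox1 at -0.47 (SE 0.20). The 1 was Lyz2, lysozyme, at 0.29 (SE 0.11). Vcam1 differed by -0.90 (SE 0.54) and Cd5l, within the background, by -0.83 (SE 0.47). Csf1r (-0.01, SE 0.19) and Adgre1 (0.10, SE 0.27) differed little. B cell marker means overlapped, at 5.28 to 5.42 in rapamycin mice and 5.34 to 5.46 in PBS mice, with the B cell receptor subunit Cd79b at -0.54 (SE 0.11) and Fcer2a, a low-affinity IgE receptor, at 0.07 (SE 0.08). Endothelial and stromal means overlapped too, at 5.50 to 5.54 in rapamycin mice and 5.50 to 5.62 in PBS mice, with the junction protein Cdh5 at -0.31 (SE 0.09) and the matrix protein Dcn at 0.35 (SE 0.11). Fcer2a, Cdh5 and Dcn lay within the background of olfactory and vomeronasal receptor genes, so their differences are not interpretable as changes. Pecam1, an adhesion protein of endothelium and of some blood cells that lay above that background, measured 8.65, 8.97 and 8.79 in rapamycin mice, against 8.99, 9.12 and 9.13 in PBS mice, a difference of -0.28 (SE 0.10). T cell marker means ran from 11.12 to 11.30 in rapamycin mice and from 11.14 to 11.34 in PBS mice, with Cd5 at -0.19 (SE 0.08) and Cd8b1 at -0.13 (SE 0.08). What part other cells have in the differences of the 10 genes was not tested.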

How the data were processed

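The deposited values are log2 expression, made by the authors with RMA in Affymetrix Expression Console, per the submitters' processing notes. RMA subtracts background, equalises the arrays' distributions and summarises probes, so a shift shared by most genes is removed and differences near background are compressed. Versions and scan batches were not given in the sources, and detection calls were not used here. Array medians were 6.03 to 6.17.

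Of 35556 probe sets, 21789 named exactly 1 gene in the platform's annotation. The probe set with the highest mean stood for each of 19938 genes. Groups and replicate numbers came from the sample titles. All 6 arrays were fitted with limma 3.58.1 in R 4.3.3 (lmFit, eBayes, group as the only term), two-sided, with Benjamini-Hochberg adjustment over all genes, a call at an adjusted p under 0.05 and 95% intervals. The fit was tested on simulated data, and the motif search on a short made-up sequence. Figures were drawn with matplotlib 3.10.9. No set test was run.

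Named were all 10 members, Cd3e, Cd4 and Cd8a, from each pathway list up to 4 genes at an unadjusted p under 0.05 or else the 2 with the smallest p, 2 per marker list, and the 3 genes most like S1pr1 and S1pr5. Further names were chosen after their values were seen. Markers among them include Klra8, Klre1, Klrk1, Pax5, Ms4a1, Kdr, Tek, Pecam1, Cd22, Egfl7, Col1a1, Col3a1, Hmox1, Vcam1, Cd5l, Csf1r, Adgre1 and Hemgn. Receptors among them include Lpar1, Lpar4, Gpr4 and Gpr34. The members and lists were chosen with earlier results of these data known. A comparison of receptor proteins was planned and not made. Sequences are RefSeq's.

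The 14 alternatives were the mean of a gene's probe sets, all probe sets tested together, a filter on low genes, an intensity trend, robust eBayes, array weights, median centring, a replicate block and leaving out each of the 6 arrays.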

Additional observations from a re-analysis of the deposited data

How the results depend on the processing

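No member passed limma's adjusted test under any of the 14 alternatives, with 2 to 4 members at an unadjusted p under 0.05 in each. The share of all genes at that level was not counted under any alternative, the replicate block included. The 4.67% given above is for the fit as reported, so the counts from the alternatives cannot be set against it. S1pr1 stayed between -0.53 and -0.36 (adjusted p 0.319 to 0.99999), S1pr5 between -0.71 and -0.52 (0.161 to 0.99999), Klf2 between -0.39 and -0.21 and S1pr4 between -0.41 and -0.18. The count of all genes called was 1 as reported, 0 with all probe sets tested together, 0 with the replicate block and 0 to 7 with 1 mouse left out, 7 being without rapamycin replicate 1. Members without overlap, all lower, were 2 as reported and 1 without the lowest 50% of genes, where S1pr5, S1pr3 and Sphk1 are not tested. They were 4 with arrays centred on their median, and 2 to 4 with 1 mouse left out, 4 being without PBS replicate 3. The share of all genes without overlap was not counted under these alternatives. The 6.28% given above is for all 6 arrays as deposited, so the counts from the alternatives cannot be set against it. With array weights the sign turned for Cd69 (0.11) and Sgpl1 (0.042). With 1 mouse left out it turned for some mice in Cd69 (-0.16 to 0.18), Sgpl1 (-0.16 to 0.10), S1pr2 (-0.063 to 0.13), S1pr3 (-0.11 to 0.17) and Sphk1 (-0.21 to 0.045). The cause of these shifts was not tested. Same-numbered mice did not deviate together (correlations -0.19 to 0.20 over 3 pairs, 2 of 6 samples correlating best with their own number), so the numbers were not taken as pairs, and with the replicate block 0 members were called and 4 stood at an unadjusted p under 0.05. Signal near background limits what can be said of S1pr3.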
